A study of Mus musculus with 12 samples.

Results

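Complex I, NADH:ubiquinone oxidoreductase, takes electrons from NADH, passes them along a flavin and a chain of iron-sulfur clusters to ubiquinone, and pumps protons across the mitochondrial inner membrane. Its matrix arm holds the N module, which oxidises NADH, and the Q module, which reduces ubiquinone, and its membrane arm holds the proton pumps. The pumps are encoded by the mitochondrial genome, and the remaining subunits by nuclear genes whose products are imported and assembled with the help of dedicated assembly factors. Muscle fibres with high oxidative capacity are rich in mitochondria and therefore in this complex.

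The genes described here are all rows of a mouse muscle expression table whose symbol begins with Nduf, followed by a, b, c, s or v and a number, and is not marked as a pseudogene by the ending -ps. The rule found 41 of 30488 rows. Of these, 36 are nuclear genes for complex I subunits, 7 core and 29 accessory. The other 5 are Ndufa4, which is now counted with complex IV, its paralog Ndufa4l2, and the single-exon copies Ndufb4c, Ndufs6b and Ndufa11b. The row Ndufb1 corresponds to the gene that GENCODE M21 lists as Ndufb1-ps and RefSeq as protein coding. Ndufb4c, which RefSeq also lists as protein coding, was counted with the copies. The acyl carrier subunit Ndufab1 is a further nuclear subunit whose symbol the rule does not take.

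RNA was sequenced from gastrocnemius, the large calf muscle, of 12 mice aged 32 weeks, in 4 groups of 3. The wild-type group is called WT. The KO mice were heterozygous for a 303 bp deletion, made with Cas9, of exons 2 and 3 of Gmppb, the gene of an enzyme that makes GDP-mannose. The P32L mice were heterozygous for a C-to-T change at base 95 of Gmppb (proline to leucine at residue 32), and the R287Q mice were homozygous for a G-to-A change at base 860 (arginine to glutamine at residue 287). The study was set up to ask how Gmppb acts on muscle. Zygosity therefore differs between the groups, and the labels give no sex, litter, founder line or batch. Levels are given in TPM, in which reads are divided by transcript length and each library is scaled to the same total, so that genes can be compared within a mouse.

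All 8 myofibre markers were expressed in every library, and their summed level ran from 25125 to 36789 TPM, while the summed level of the 3 measured heart markers stayed at or below 1.49 TPM. Gmppb itself lay at 4.42, 3.02 and 3.61 TPM in WT mice, 3.37, 3.62 and 3.33 in the KO mice, 3.57, 3.55 and 3.26 in the P32L mice and 3.03, 4.09 and 4.16 in the R287Q mice, so that the groups overlapped. Gene totals cannot show point changes, and the heterozygous deletion leaves an intact allele. Mitochondrially encoded transcripts took between 53.0% and 58.4% of each library. The deposited values keep no sequencing depth.

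Several of these genes carry, close to their start, short words from elements that are known to bind regulators of nuclear mitochondrial genes. Binding was not measured here. The words are shown because a shared element is one thing the naming rule did not use. RefSeq promoter windows (GRCm38.p6, 250 bases before to 50 after the start of transcription) were found for 33 genes, in 35 windows. The word AAGATGGC, which is part of the element bound by YY1, was searched on both strands and stood in 7 of the 35 windows (20%), against 5.15% of 7938 windows of genes tested here and 2.75% of all 32851 windows. All 7 matches lay on the gene's own strand, from 23 to 39 bases past the start. In all 7 the ATG inside the word is the annotated start codon, so the word is also the context of translation initiation. The 30 bases around each match are given 5′ to 3′ on the gene's strand, with the word in capitals.
Ndufa3, chr7:3617384-3617413, plus strand: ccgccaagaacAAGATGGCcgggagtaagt
Ndufa9, chr6:126849097-126849126, minus strand: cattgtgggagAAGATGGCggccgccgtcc
Ndufb8, chr19:44555393-44555422, minus strand: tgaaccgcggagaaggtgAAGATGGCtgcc
Ndufc1, chr3:51408915-51408944, minus strand: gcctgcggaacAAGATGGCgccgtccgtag
Ndufs4, chr13:114388045-114388074, minus strand: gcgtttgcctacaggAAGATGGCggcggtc
Ndufs6, chr13:73328433-73328462, minus strand: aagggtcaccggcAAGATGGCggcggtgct
Ndufs7, chr10:80249462-80249491, plus strand: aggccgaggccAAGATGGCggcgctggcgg

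Elements of the other regulators were less frequent. The palindromic consensus of the mitochondrial biogenesis factor NRF1 stood in 1 window (2.86%, against 2.22% of windows of genes tested). That window belongs to Ndufa11, a membrane-arm subunit, and its upstream part is given with the match in capitals.
Ndufa11, chr17:56717612-56717761, plus strand: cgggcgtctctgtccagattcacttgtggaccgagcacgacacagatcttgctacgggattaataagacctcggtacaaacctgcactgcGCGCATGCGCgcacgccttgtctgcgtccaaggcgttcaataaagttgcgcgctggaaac
The ETS word CCGGAAG stood in 4 windows (11.4%, against 19.2% of windows of genes tested), those of Ndufb6, Ndufb7, Ndufs3 and Ndufs8. The ERR word AAGGTCA stood in 3 (8.57%, against 3.29%), those of Ndufb2, Ndufb4 and Ndufs5. These words were searched on both strands, and 20 of the 35 windows held none of the 4. In 32 windows of genes of complexes II to V the shares were 6.25% for the YY1 word, 9.38% for NRF1, 31.2% for ETS and 15.6% for ERR.

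The levels of the 36 subunits spanned a wide range although the assembled complex holds them in fixed proportions. Mean TPM over the 12 mice ran from 4.65 for Ndufs4 to 209 for Ndufb11, a 45.04-fold range with a median of 45.01. Between 21 and 22 subunits had a group mean from 20 to 70 TPM in each of the 4 groups. Accessory subunits of the distal membrane arm, the Ndufb family, had a median of 50.6 TPM, those of the proximal membrane arm 53.1, and those of the matrix arm 22.1. The 3 core N-module genes had a median of 33.4 TPM and the 4 core Q-module genes 62.6.

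Ndufb11, an X-linked accessory subunit of the membrane arm, lay at 221, 194 and 171 TPM in WT mice, 185, 228 and 265 in the KO mice, 204, 205 and 190.5 in the P32L mice and 226, 208 and 214 in the R287Q mice. The R287Q mice all lay above the P32L mice, and the other groups overlapped. Ndufs4, an accessory subunit added late in assembly whose loss in mice causes a fatal encephalopathy, lay at 4.64, 4.45 and 4.50 TPM in WT mice. It was 4.32, 5.02 and 5.76 in the KO mice, 4.67, 4.49 and 3.90 in the P32L mice and 4.93, 4.61 and 4.44 in the R287Q mice. All 4 groups overlapped.

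**Figure D1:**
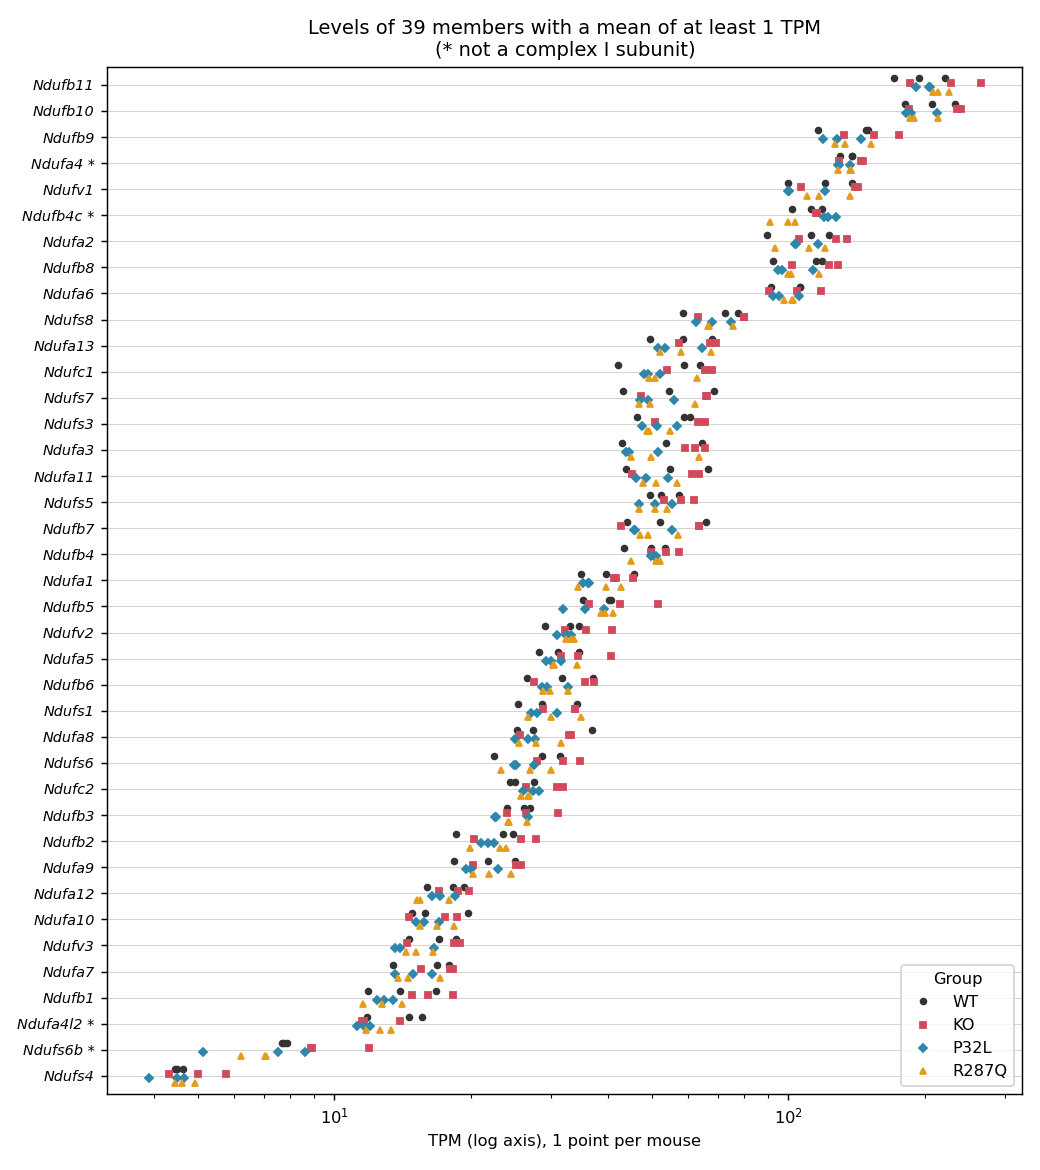
TPM (log axis) of 39 members with a mean of at least 1 TPM, 1 point per mouse, with WT, KO, P32L and R287Q drawn as separate symbols and members ordered by mean. Genes differ by up to 45.04-fold among the 36 subunits, while the groups lie close together within each gene.

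Among the core N-module genes, Ndufv1, which binds NADH and the flavin, lay at 138, 120.1 and 99.8 TPM in WT mice, 107, 140.2 and 142 in the KO mice, 121, 100.4 and 99.6 in the P32L mice and 110.1, 117 and 137 in the R287Q mice. Each group held a low and a high mouse, and WT mouse 3 and P32L mice 2 and 3 were the lowest. Ndufv2, which carries an iron-sulfur cluster beside it, lay at 34.5, 33.0 and 29.1 TPM in WT mice, 32.1, 35.8 and 40.9 in the KO mice, 33.2, 32.3 and 30.9 in the P32L mice and 33.7, 32.3 and 33.2 in the R287Q mice. Ndufs1, the largest subunit, lay at 34.2, 28.6 and 25.3 TPM in WT mice, 28.8, 33.9 and 33.8 in the KO mice, 31.0, 28.0 and 27.0 in the P32L mice and 26.7, 30.02 and 34.8 in the R287Q mice. WT mouse 3 was the lowest of the 12 for these 3 genes except Ndufv1, where P32L mouse 3 was lower, and all groups overlapped.

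The core Q-module genes showed the same low and high WT and KO mice. Ndufs3, a structural core subunit, lay at 60.7, 58.7 and 46.3 TPM in WT mice, 50.8, 63.1 and 65.4 in the KO mice, 56.8, 47.5 and 51.3 in the P32L mice and 49.3, 48.9 and 54.7 in the R287Q mice. WT mouse 3 was the lowest of the 12 and KO mouse 1 the lowest of its group.

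Ndufs7, which carries the last cluster of the electron chain, lay at 68.7, 54.7 and 43.1 TPM in WT mice, 47.4, 65.8 and 66.3 in the KO mice, 56.0, 49.0 and 47.2 in the P32L mice and 47.0, 49.5 and 62.2 in the R287Q mice. Ndufs8, another carrier of iron-sulfur clusters, lay at 77.3, 72.5 and 58.6 TPM in WT mice, 63.1, 79.8 and 79.9 in the KO mice, 74.7, 62.4 and 67.8 in the P32L mice and 66.4, 67.0 and 75.5 in the R287Q mice. Ndufs7 had the largest spread of the 36 subunits among the WT mice, a coefficient of variation of 23.0%, and its groups overlapped, as did those of Ndufs8.

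The subunits varied together from mouse to mouse. All 36 were above their own 12-mouse mean in KO mice 2 and 3, none was in WT mouse 3, and 1 was in each of P32L mice 2 and 3. KO mouse 3 was the highest of the 12 for 24 subunits, and WT mouse 3 the lowest for 23. A score per mouse was taken as the mean over the 36 subunits of log2(TPM + 1) less the 12-mouse mean. It was 0.13, 0.06 and -0.21 in the WT mice, -0.08, 0.17 and 0.24 in the KO mice, 0.03, -0.13 and -0.13 in the P32L mice and -0.07, -0.10 and 0.09 in the R287Q mice. The group means of this score differed by at most 0.19, while single mice spanned 0.45. They were -0.01 ± 0.18 in WT, 0.11 ± 0.17 in KO, -0.08 ± 0.09 in P32L and -0.03 ± 0.10 in R287Q (SD, n = 3 each).

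Summed over the 36 subunits, the level was 2285, 2163 and 1776 TPM in WT mice, 1942, 2363 and 2485 in the KO mice, 2131, 1895 and 1888 in the P32L mice and 2001, 1944 and 2234 in the R287Q mice. The lowest and the highest WT mice thus enclosed all the P32L and R287Q mice, and KO mice 2 and 3 lay above every other mouse. Within groups the median coefficient of variation of a subunit was 14.04% in WT, 12.9% in KO, 7.76% in P32L and 8.97% in R287Q. The highest mouse exceeded the lowest by 1.30-fold (Ndufa6) to 1.62-fold (Ndufb5) over the 12 mice, with a median of 1.41-fold, against a median of 1.48-fold over all genes tested.

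The nuclear genes of the other respiratory complexes had nearly the same score in each mouse. For 38 genes of complexes II to V it was 0.13, 0.07 and -0.20 in the WT mice, -0.09, 0.15 and 0.22 in the KO mice, 0.02, -0.14 and -0.14 in the P32L mice and -0.06, -0.07 and 0.11 in the R287Q mice. The distance between the complex I score and this score was at most 0.03 in a mouse. Part of the scores is a shift of the whole library: the median of all 9152 genes tested ran from -0.11 in R287Q mouse 1 to 0.10 in WT mouse 1. Less that median, the complex I score was still lowest in WT mouse 3 (-0.15) and highest in KO mouse 3 (0.22).

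The 7 complex I genes of the mitochondrial genome did not share this pattern. Their score was 0.00, 0.09 and 0.08 in the WT mice, 0.06, -0.08 and -0.11 in the KO mice, -0.03, -0.01 and -0.03 in the P32L mice and -0.02, 0.00 and 0.05 in the R287Q mice. KO mice 2 and 3, the highest for the nuclear subunits, were the lowest for these. Together the 7 transcripts made up 17.1% to 19.2% of a library, against 0.178% to 0.249% for the 36 nuclear subunits. Because TPM is a share of the total, a library with a smaller mitochondrial share has more left for every nuclear gene. The members were therefore also compared with mitochondrial transcripts left out of the total. In that setting, the rows left out were the 37 genes of the mitochondrial genome and 11 nuclear rows that match them. Those 11 nuclear rows took between 19.64% and 20.97% of each library.

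**Figure D2:**
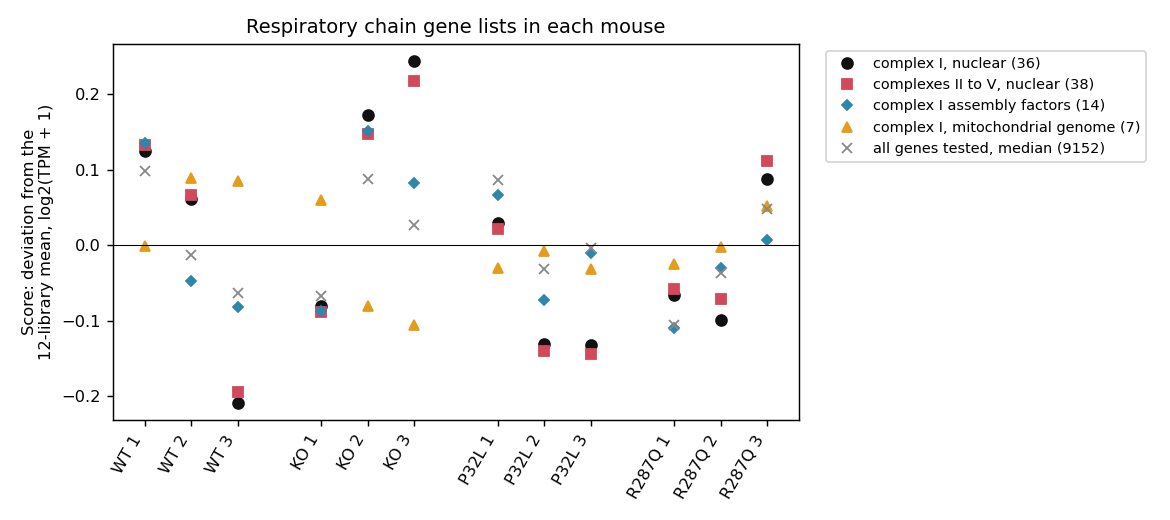
Score of 5 gene lists in each of the 12 mice, as the mean deviation from the 12-mouse mean on the log2(TPM + 1) scale (for all genes tested, the median). Complex I and complexes II to V nearly coincide in every mouse, from about -0.21 in WT mouse 3 to 0.24 in KO mouse 3, and the mitochondrially encoded complex I genes are low where those are highest.

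Fibre type and immune cell markers differed between the same mice. The summed level of 8 slow-fibre markers was 33.7 TPM in the lowest and 418 TPM in the highest KO mouse, which were KO mice 2 and 3, and both of these mice had a high complex I score. In the WT mice it ran from 142 to 236 TPM, in the P32L mice from 16.2 to 144 and in the R287Q mice from 59.4 to 401. The summed level of 12 macrophage markers ran from 51.0 to 163 TPM in WT mice, 149.7 to 255 in the KO mice, 94.5 to 144 in the P32L mice and 87.3 to 149 in the R287Q mice. No marker of either list averaged under 0.1 TPM. Their part in the results below was not tested, and in whole muscle fewer cells of a type and less RNA per cell cannot be told apart.

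To ask whether the KO mice differed from WT, each gene was tested with limma on log2(TPM + 1), with Benjamini-Hochberg adjustment over 9152 genes and a call at an adjusted p under 0.05. None of the 40 members that passed the expression filter was called, where 0.0109% of all genes were, and 1 member had an unadjusted p under 0.05, against 5.95% of all genes. Here and below, higher and lower in a count of genes give the sign of this log2 fold change. The 36 subunits were all higher in KO, with log2 fold changes from 0.01 (Ndufa10) to 0.23 (Ndufa3) and a median of 0.12. Of the 40 members, 39 were above 0, against 52.1% of all genes. That direction rests on a few mice: without WT mouse 3 the count was 24 and the members' median log2 fold change was 0.02 in place of 0.12. The count also moved with scaling, and so did that of all genes: it was 31 of 40 after quantile normalization, against 43.5% of all genes, and 29 of 40 with mitochondrial transcripts left out of the total, against 36.9%. Less the median of all genes, the members' median was 0.11 as deposited, 0.07 after quantile normalization and 0.10 with mitochondrial transcripts left out.

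The members with the smallest p in that comparison were Ndufc2, Ndufs6b and Ndufv2. Values of Ndufs6b, and of Ndufb4c below, depend on how reads shared with their parent genes were divided, which is not known. Ndufc2, a subunit of the membrane arm, lay at 27.5, 25.0 and 24.4 TPM in WT mice and 26.5, 30.9 and 31.9 in the KO mice, with 1 KO mouse inside the WT range. Its log2 fold change was 0.21 ± 0.09 (SE, limma, adjusted p = 0.787). Ndufs6b, a copy of the zinc-binding subunit gene Ndufs6, lay at 7.68, 7.75 and 7.85 TPM in WT mice and 8.94, 8.90 and 11.9 in the KO mice, so that the groups did not overlap (log2 fold change 0.31 ± 0.15, SE, limma, adjusted p = 0.852). It was the single member with no overlap, where 4.39% of all genes were higher in this way. For Ndufv2 the log2 fold change was 0.16 ± 0.10 (SE, limma, adjusted p = 0.892). The unadjusted 95% intervals of the 36 subunits reached from -0.33 (Ndufb7) to 0.57 (Ndufa3), so each of them left out a 1.5-fold change in either direction.

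In P32L against WT the subunits leaned the other way. None of the 40 members was called (0.0437% of all genes were), and 1 had an unadjusted p under 0.05, against 6.52% of all genes. Of the 36 subunits, 32 were lower in P32L, and the median log2 fold change was -0.08. Of the 40 members 5 were above 0, against 55.5% of all genes, but 18 were without WT mouse 1 and 2 without WT mouse 3. The widest intervals reached -0.53 (Ndufa3) and 0.33 (Ndufb11), again short of 1.5-fold.

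Ndufa4l2, the paralog of Ndufa4 that is induced by low oxygen, had the smallest p in that comparison. It lay at 15.6, 14.6 and 11.8 TPM in WT mice, 11.5, 11.6 and 13.9 in the KO mice, 11.98, 11.6 and 11.2 in the P32L mice and 11.7, 12.6 and 13.3 in the R287Q mice. WT mice 1 and 2 were above all others, and WT mouse 3 lay among the P32L mice (log2 fold change -0.24 ± 0.11, SE, limma, adjusted p = 0.755). Ndufb4c, a copy of the membrane-arm gene Ndufb4, was higher in P32L with no overlap, at 127, 119.6 and 122 TPM against 102, 112 and 118 (0.15 ± 0.08, SE, limma, adjusted p = 0.909), where 5.56% of all genes were higher in this way. Ndufv3, an N-module accessory subunit, lay at 18.5, 17.01 and 14.6 TPM in WT mice and 16.6, 13.6 and 13.9 in the P32L mice, which overlapped (-0.17 ± 0.12, SE, limma, adjusted p = 0.999).

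For R287Q against WT the subunits were close to no difference. None of the 40 members was called, as of all genes (0%), and none had an unadjusted p under 0.05, against 5.36% of all genes. The log2 fold changes of the 36 subunits ran from -0.13 (Ndufa12) to 0.15 (Ndufb11), with a median of -0.01. Of the 40 members 15 were above 0, against 36.8% of all genes. Under other scalings members and all genes shifted together, to 23 members and 47.4% of all genes after median-of-ratios scaling, 29 and 46.9% after quantile normalization, and 32 and 58.4% with mitochondrial transcripts left out. Less the median of all genes, the members' median lay between 0.02 and 0.03 on the deposited scale and on these 3. As deposited, the count ran from 3 without WT mouse 3 to 28 without WT mouse 1. Ndufs6b was the single member below WT with no overlap, where 5.99% of all genes were. The intervals of the subunits reached from -0.46 (Ndufb7) to 0.44 (Ndufb11).

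The smallest p values there belonged to Ndufb4c, Ndufa12 and Ndufa4l2. Ndufb4c lay at 103, 99.6 and 91.2 TPM in the R287Q mice, overlapping WT mouse 1 (log2 fold change -0.17 ± 0.08, SE, limma, adjusted p = 0.957). Ndufa12, an accessory subunit at the joint of the N and Q modules, lay at 19.3, 18.2 and 16.0 TPM in WT mice, 17.01, 19.8 and 18.7 in the KO mice, 18.4, 16.4 and 17.1 in the P32L mice and 15.2, 15.4 and 17.9 in the R287Q mice (-0.13 ± 0.10 against WT, SE, limma, adjusted p = 0.981). For Ndufa4l2 the log2 fold change was -0.14 ± 0.11 (SE, limma, adjusted p = 0.981).

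**Figure D3:**
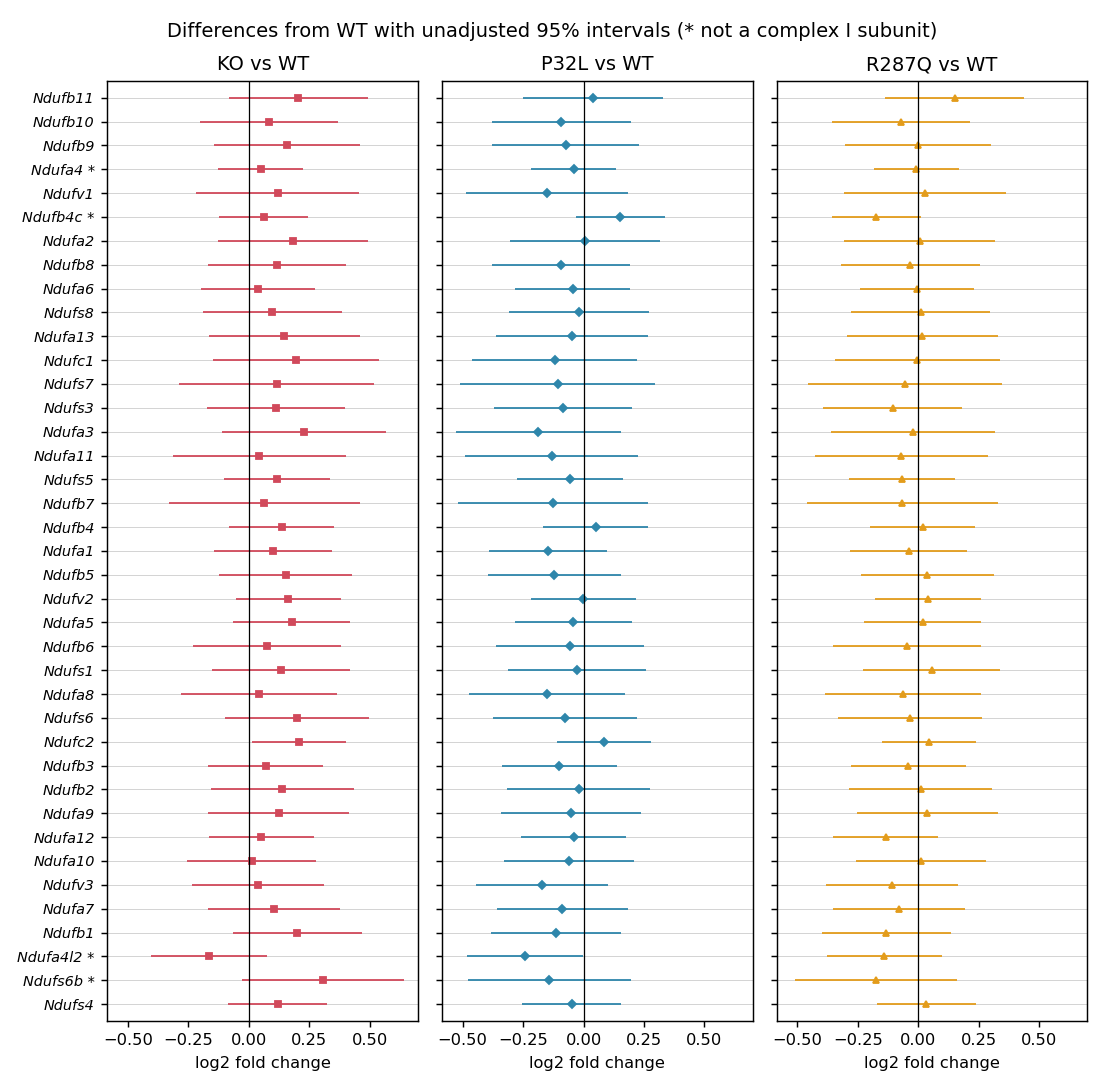
Log2 fold change of 39 members against WT in the KO, P32L and R287Q mice, with unadjusted 95% intervals from limma; the 3 panels share the WT mice. Points lie to the right of 0 for nearly all members in KO and to the left for most in P32L, nearly all intervals cross 0, and the ordering is by mean TPM.

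The mutant lines were also set against each other. These comparisons share mice with those above and do not add independent evidence. None of the 40 members was called in P32L against KO (0.0219% of all genes), in R287Q against KO (0.0437%) or in R287Q against P32L (0%), and 4, 3 and 1 members had an unadjusted p under 0.05, against 8.01%, 7.93% and 6.67% of all genes. The 36 subunits were all lower in P32L than in KO, with a median log2 fold change of -0.18, and 35 of 36 were lower in R287Q than in KO, with a median of -0.13. In R287Q against P32L, 6 were lower, with a median of 0.06. Of the 40 members, 1, 2 and 32 were above 0 in these comparisons, against 51.4%, 34.6% and 32.7% of all genes. The unadjusted 95% intervals of the 36 subunits reached -0.75 in P32L against KO (Ndufa3) and -0.60 in R287Q against KO (Ndufb1). There a 1.5-fold change was not left out for every subunit. In R287Q against P32L the intervals reached from -0.35 (Ndufs7) to 0.51 (Ndufv1), short of 1.5-fold.

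Between P32L and KO, Ndufs6b, at 8.59, 7.50 and 5.15 TPM in the P32L mice, had the smallest p (log2 fold change -0.45 ± 0.15, SE, limma, adjusted p = 0.489). Ndufa3, a small membrane-arm subunit, lay at 59.2, 62.3 and 65.5 TPM in the KO mice and 51.5, 43.8 and 44.5 in the P32L mice, with no overlap (-0.41 ± 0.15, SE, limma, adjusted p = 0.534). The WT mice, at 53.8, 64.4 and 43.1, and the R287Q mice, at 49.9, 45.1 and 63.4, each overlapped both groups. Ndufb1, another membrane-arm subunit, lay at 13.97, 16.7 and 11.9 TPM in WT mice, 16.0, 14.8 and 18.2 in the KO mice, 13.5, 12.9 and 12.4 in the P32L mice and 12.7, 11.6 and 14.1 in the R287Q mice (-0.32 ± 0.12 for P32L against KO, SE, limma, adjusted p = 0.554). In all, 6 members were lower in P32L than in KO with no overlap and 1 was higher, where 4.98% and 7.99% of all genes were.

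Between R287Q and KO the smallest p values were those of Ndufs6b, at 6.24, 7.02 and 7.07 TPM in the R287Q mice (log2 fold change -0.48 ± 0.15, SE, limma, adjusted p = 0.443), Ndufb4c (-0.23 ± 0.08, adjusted p = 0.502) and Ndufb1 (-0.33 ± 0.12, adjusted p = 0.528). These 3 were also the members that did not overlap, where 7.97% of all genes were lower in this way. In R287Q against P32L, Ndufb4c was lower with no overlap (-0.33 ± 0.08, SE, limma, unadjusted p = 0.00252, adjusted p = 0.404), where 10.2% of all genes were, and Ndufb11 was higher with no overlap, where 2.31% were. Ndufb5, a membrane-arm subunit, lay at 40.6, 40.3 and 35.3 TPM in WT mice, 36.4, 42.5 and 51.7 in the KO mice, 39.2, 35.7 and 31.9 in the P32L mice and 41.1, 38.7 and 39.5 in the R287Q mice (0.16 ± 0.13, SE, limma, adjusted p = 0.870). For Ndufv1 the difference was 0.18 ± 0.15 (SE, limma, adjusted p = 0.878).

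Ndufa4 was the steadiest member. It lay at 138, 138 and 129.6 TPM in WT mice, 129, 146 and 145 in the KO mice, 137, 129 and 129 in the P32L mice and 137, 128 and 138 in the R287Q mice. Its highest mouse exceeded its lowest by 1.14-fold, less than any of the 36 subunits, and on the log2 scale it differed from WT by 0.05 ± 0.08 in KO, -0.04 ± 0.08 in P32L and -0.01 ± 0.08 in R287Q (SE, limma). The single-exon copy Ndufa11b was at or near 0, with a highest value of 0.203 TPM in WT mouse 3, and did not pass the filter.

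Copies of subunit genes bear on how far single values can be read. Ndufb4c (chr15:73809507-73809896, minus strand, build mm10) is a single exon that GENCODE lists as a processed pseudogene and RefSeq as protein coding. It is identical to Ndufb4 over all its 390 bases, and Ndufs6b (chr7:81161397-81161744, minus strand) is 96.6% identical to Ndufs6 over 348. How reads that match both were divided is not given in the sources used here. The first 120 coding bases of Ndufs6 and the matching stretch of its copy are given with the 7 differing bases in capitals, followed by the same stretch of Ndufb4, which reads the same in Ndufb4c.
Ndufs6: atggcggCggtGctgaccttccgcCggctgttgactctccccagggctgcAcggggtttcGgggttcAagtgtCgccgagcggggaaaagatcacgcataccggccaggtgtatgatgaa
Ndufs6b: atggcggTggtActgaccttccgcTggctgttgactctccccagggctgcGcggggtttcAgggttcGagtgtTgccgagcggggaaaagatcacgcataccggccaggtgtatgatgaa
Ndufb4: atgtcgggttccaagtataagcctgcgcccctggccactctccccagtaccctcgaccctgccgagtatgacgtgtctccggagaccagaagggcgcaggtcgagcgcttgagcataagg

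Ndufb4 lay at 49.7, 53.5 and 43.4 TPM in WT mice, 49.7, 53.7 and 57.5 in the KO mice, 50.5, 49.8 and 51.0 in the P32L mice and 52.2, 45.0 and 51.0 in the R287Q mice. Its copy was listed at 1.79 to 2.73 times that level and did not follow it, with the highest ratio in WT mouse 3, where Ndufb4 was lowest. Ndufs6 lay at 28.6, 31.3 and 22.5 TPM in WT mice, 27.9, 31.8 and 34.7 in the KO mice, 27.5, 25.0 and 24.8 in the P32L mice and 27.0, 23.2 and 29.98 in the R287Q mice, and Ndufs6b was listed at 0.207 to 0.350 times that. The row Ndufa12-ps, outside the naming rule, is 99.5% identical to Ndufa12 over 402 bases and was listed at 145 TPM on average against 17.5 for Ndufa12 itself. Values of Ndufb4, Ndufs6, Ndufa12 and also Ndufs3, whose copy Gm12251 was listed at 37.6 TPM, are therefore uncertain. So are those of Ndufb4c and Ndufs6b, and with them the differences between groups given above for these 2 members. In all, 7 of the 36 subunit genes had a near-identical copy elsewhere. The others are Ndufs5, whose copy BC002163 was not matched to a row, Ndufb11 and Ndufb3. Whether the row Ndufs5-ps, at 5.29 TPM on average against 53.1 for Ndufs5, is that copy was not checked. The copies of Ndufb11 (Gm6444) and Ndufb3 (Gm45930) averaged 0.465 and 0.160 TPM. Of the 36 subunit genes, 16 share exon sequence with a neighbouring gene, and the library kit does not mark strand.

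**Figure D4:**
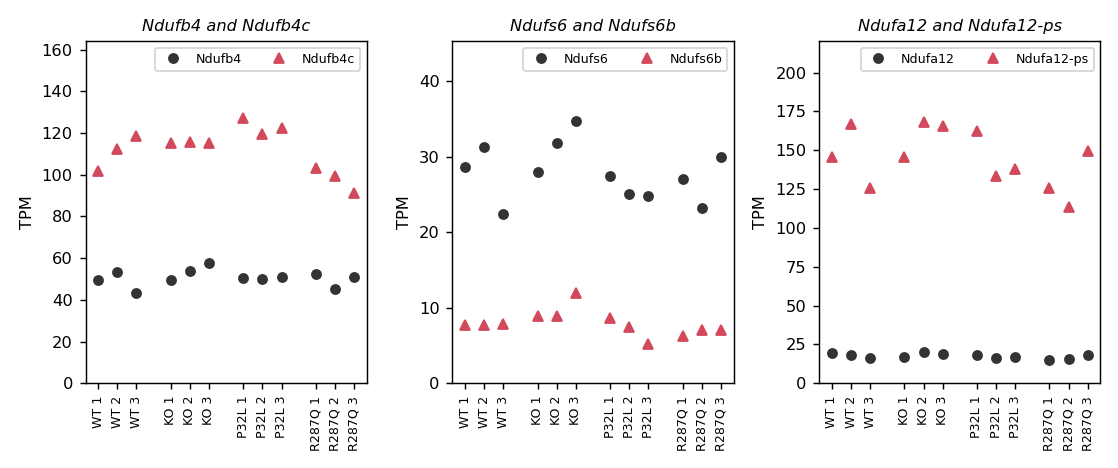
TPM of Ndufb4, Ndufs6 and Ndufa12 (circles) and of a near-identical copy of each (triangles) in the 12 mice, with axes starting at 0. Ndufb4c and Ndufa12-ps were listed above their parent genes in every mouse and Ndufs6b below.

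Other genes of the pathway were compared in the same fit, and none was called. Of 14 assembly factors that passed the filter, 9 were higher in KO than in WT (median log2 fold change 0.08), 8 in P32L (0.01) and 2 in R287Q (-0.04), against 52.1%, 55.5% and 36.8% of all genes. Tmem126b, a factor of membrane-arm assembly, had the smallest p of that list, at 11.8, 12.8 and 12.1 TPM in the KO mice and 10.6, 10.9 and 10.5 in the R287Q mice, which did not overlap (-0.19 ± 0.08, SE, limma, adjusted p = 0.599). Of 38 genes of complexes II to V, 37 were higher in KO than in WT (median 0.09), 3 in P32L (-0.09) and 20 in R287Q (0.00). Atp5k, a subunit of ATP synthase, had the smallest p of these, in P32L against KO (-0.45 ± 0.17, SE, limma, adjusted p = 0.531).

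Of the 7 mitochondrially encoded complex I genes, 2 were higher in KO than in WT (median log2 fold change -0.06), 1 in P32L (-0.07) and 1 in R287Q (-0.06). The smallest p was that of mt-Nd4l, a small proton-pump subunit, at 20507 ± 1140.5 TPM in WT and 16550.0 ± 3711 in KO (SD, n = 3; log2 fold change -0.33 ± 0.14, SE, limma, adjusted p = 0.787). All 10 tested genes of iron-sulfur cluster assembly were higher in KO than in WT (0.09), 5 in P32L (-0.01) and 5 in R287Q (0.00). Glrx5, a glutaredoxin that hands on clusters, led that list in P32L against KO (-0.33 ± 0.13, SE, limma, adjusted p = 0.555). Of 12 tricarboxylic acid cycle genes, 8 were higher in KO than in WT (0.02), 2 in P32L (-0.06) and 4 in R287Q (-0.01), led by Sucla2, a succinyl-CoA ligase subunit, in KO against WT (0.16 ± 0.10, SE, limma, adjusted p = 0.898).

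Of 10 regulators of mitochondrial biogenesis 5 passed the filter, and the coactivator gene Ppargc1a, with a mean of 0.974 TPM, did not. Of the 5, 2 were higher in KO than in WT (median log2 fold change 0.00), 4 in P32L (0.09) and 3 in R287Q (0.00). Pprc1, a coactivator of the same family, had the smallest p, in P32L against KO (0.27 ± 0.08, SE, limma, adjusted p = 0.382). Ndufab1, the acyl carrier subunit, lay at 26.5, 21.4 and 19.9 TPM in WT mice, 20.3, 25.0 and 27.6 in the KO mice, 23.8, 22.2 and 22.9 in the P32L mice and 21.5, 23.2 and 21.6 in the R287Q mice. It too was lowest in WT mouse 3 and highest in KO mouse 3. The row Ndufab1-ps had the same lowest and highest mice and was listed at 26.1 TPM on average, against 23.0 for Ndufab1. Its sequence was not compared with Ndufab1, whose values may be uncertain like those of other genes with copies.

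Several marker lists of other cells in the muscle leaned to one side in the same comparisons, and no marker was called in KO, P32L or R287Q against WT. All 10 macrophage markers tested were higher in KO (median log2 fold change 0.89), as were all 4 erythroid (0.56), all 4 nerve (0.51) and all 6 fibroblast markers (0.36), and 6 of 7 adipocyte markers (0.37). Of the smooth muscle markers 2 of 4 were higher (0.00), of the endothelial markers 1 of 5 (-0.08) and of the slow-fibre markers 1 of 8 (-0.31). Of all genes, 52.1% were higher in KO, 55.5% in P32L and 36.8% in R287Q. In KO, 7 macrophage markers had an unadjusted p under 0.05 (limma), against 5.95% of all genes. Of the macrophage markers, 3 were higher with no overlap, against 4.39%. No erythroid, nerve, fibroblast or adipocyte marker had such a p, and 2 endothelial markers, both lower, did. In P32L against WT, where the subunits leaned lower, all 10 macrophage (0.27), 4 erythroid (0.23), 4 nerve (0.34) and 7 adipocyte markers (0.35) were again higher, 4 of 6 fibroblast markers were (0.00), and all 8 slow-fibre markers were lower (-1.39). In R287Q against WT, 9 of 10 macrophage (0.23), all 4 erythroid (0.11), 4 nerve (0.24), 7 adipocyte (0.36) and 4 smooth muscle markers (0.27) were higher. So were 5 of 6 fibroblast (0.19), 2 of 5 endothelial (-0.03) and all 8 slow-fibre markers (0.31). Log2 fold changes in KO, P32L and R287Q against WT were -0.75, -0.59 and -0.36 for the fast-fibre gene Myh1. They were 0.02, 0.16 and -0.20 for Myh4 and -0.33, -0.30 and -0.09 for Myh2. Myh1 ran from 265 to 499.5 TPM in WT mice and from 215 to 256 in the KO mice, with no overlap. Of all 9152 genes, 318 were lower in KO in this way. The summed level of the fibroblast markers ran from 134 to 231 TPM in WT mice, 177 to 244 in the KO mice, 146 to 192 in the P32L mice and 129 to 249.6 in the R287Q mice. That of the nerve markers ran from 19.7 to 51.5, 27.7 to 76.6, 33.0 to 60.4 and 37.4 to 40.8 TPM, and that of the erythroid markers from 993 to 2524, 1786 to 2879, 1492 to 1985 and 1376 to 2115 TPM, in the same order of groups. These ranges overlapped between KO and WT, and the part of these markers in the subunits' values was not tested.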

How the data were processed

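Per the submitters' processing notes, reads were handled with FastQC, HISAT2, StringTie and DESeq2 on mm10. Their versions, the annotation and the division of shared reads are not given in the sources. The deposited values were log2(TPM + 1): turned back to TPM they summed to between 997591 and 998739 per library, so depth is unknown. A fit with limma 3.58.1 under R 4.3.3 took group means over all 12 libraries, an intensity trend, and the 9152 genes averaging at least 1 TPM. Adjusted p is Benjamini-Hochberg, two-sided; a log2 fold change understates the change of genes near 1 TPM. The procedure was tested on simulated data, with planted changes larger than any subunit difference here and genes that varied independently. Genes that vary together, as the subunits did, were not simulated, so that test does not speak to them. Copies were searched with blastn 2.17.0 (at least 95% identity over 200 bases) in GENCODE M21. Values per mouse were given for core subunits (1 of the members enters the counts and medians but is not reported here by itself), Ndufa4 and its paralog, the highest and lowest member, and the 3 members with the smallest p per comparison; Ndufb4, Ndufs6 and Ndufab1 were added after their values were seen. Members and lists were chosen with earlier results of these data known. The labels do not say whether the mice are litter mates. The p-values set a group difference against the spread between these mice, with each gene's spread estimated partly from the other genes.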

Additional observations from a re-analysis of the deposited data

How the results depend on the processing

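In all 21 alternatives, no member was called in any of the 6 comparisons, and the 18 named member differences kept their direction. Adjusted p of the leading member ranged from 0.235 (R287Q against P32L) to 1. Left-out mice moved the members' median log2 fold change from 0.02 to 0.21 in KO against WT, from -0.17 to -0.01 in P32L against WT, from -0.12 to 0.04 in R287Q against WT, from -0.28 to -0.12 in P32L against KO, from -0.24 to -0.06 in R287Q against KO and from -0.01 to 0.12 in R287Q against P32L. Leaving out mitochondrial transcripts turned the median of R287Q against KO from -0.129 to 0.0141; the median of all genes shifted by 0.13 there. Splits were given above for KO and R287Q against WT. In R287Q against KO, members above 0 were 2 in the main setting, 5 after median-of-ratios scaling, 15 after quantile normalization and 22 with mitochondrial transcripts left out. The shares of all genes were 34.6%, 49.5%, 52.4% and 68.7%. Less the median of all genes, the members' median stayed below 0, at -0.08, -0.07, -0.03 and -0.07. In the same order of settings, members above 0 in P32L against WT were 5, 4, 5 and 4, against 55.5%, 51%, 48.4% and 52.5% of all genes. In P32L against KO the count was 1 in each setting, against 51.4%, 52.6%, 53.3% and 62.6% of all genes. In R287Q against P32L the members above 0 were 32, 38, 38 and 38, against 32.7%, 46.8%, 48.4% and 56.9% of all genes. The median of R287Q against WT changed sign in 6 alternatives. The number of genes called over the whole table in P32L against WT was 4, and 23 after median-of-ratios scaling and 28 after quantile normalization; under the 4 scalings the other comparisons had between 0 and 9. Replicate numbers did not pair the mice: over 18 same-numbered pairs the correlation of deviations ran from -0.53 to 0.24, and 0 of 12 libraries were closest to their own number. With the numbers as a replicate block, 0 members were called and the median in KO against WT was 0.12.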

Other observations

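Among the WT mice, short and long subunit genes ranked mice 1 and 2 differently, a split chosen after the values were seen and given without a test. Of 17 subunits with a coding length of 210 to 432 bases, 10 were higher in WT mouse 2 than in WT mouse 1 (median log2 difference 0.09), among them Ndufa1, Ndufa3 and Ndufs6. Of 18 with a coding length of 435 to 2181 bases, 1 was (median -0.14), against 2625 of all 9152 genes (median -0.12). Ndufb1, with no annotated coding length, was left out. KO mice 3 and 2 showed no such split: KO mouse 3 was higher for 14 of the 17 shorter and 13 of the 18 longer genes. Among all 9152 genes, KO mouse 3 was higher for 3277.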
